A study of Rattus norvegicus with 30 samples.

Results

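The comparison set the livers of rats that had lost part of the liver, whatever the size of the resection, against the livers of sham-operated rats. The resected side was the equal-weight average of the means of 3 groups, 6 Wistar rats each, from which 30%, 70% or 90% of the liver had been removed by partial hepatectomy (called PH30, PH70 and PH90 here), and the control was the mean of 6 Wistar rats with a sham operation. These groups hold 24 of the 30 arrays of the series, and the other 6 arrays come from control rats whose labels give no treatment, called unoperated here (the design text speaks of a control operation). All rats were wild type and were assigned at random per the design text, tissue was taken 24 hours after the operation, and whole-liver RNA was hybridised to Affymetrix Rat Gene 2.0 ST arrays, 1 array per numbered rat. Age, sex and the details of the sham operation are not given in the labels. All sizes were sampled at 1 time point, so a change that comes earlier or later at 1 size cannot be told apart from a smaller one. The labels name no batches, and every adjusted p below measures only the spread between these rats.

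Partial hepatectomy is the classic model of liver regeneration: quiescent hepatocytes of the remnant leave rest, copy their DNA and divide, while the remnant goes on with the synthesis of plasma proteins, the handling of foreign compounds and the metabolism of amino acids, fat and bile acids. Replication is prepared by loading the MCM helicase onto DNA and driven by genes that E2F transcription factors control, and mitosis follows with a later set of genes. A change common to all sizes of resection is here a shared difference from sham rats. Loss of liver tissue cannot be told apart from other differences between the resections and the sham operation.

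Values are log2 values given from each gene's median over the 30 arrays, so 1 unit is a doubling and a level near 0 is a gene's own midpoint, not its abundance. Levels of different genes, and the presence of liver markers as levels, cannot be read from such values. Because the tissue is bulk liver, fewer cells of a type and less RNA per cell cannot be told apart. Array-to-array correlation over all genes put 2 resected rats apart from their own group. The mean correlation of PH30 rat 95 was -0.113 with the other PH30 rats and 0.498 with PH70 rats, and that of PH70 rat 139 was -0.114 with the other PH70 rats and 0.203 with sham rats, while the other resected rats lay between 0.18 and 0.827 with their own groups. Both rats stay in the values below, and several counts that they move are also given without them. The changes of single genes at PH30 and PH70 are given only with both rats. Without both, the pooled change of each of the 166 genes named under the rules moved by at most 0.15. That small shift can hide opposite ones. The pooled rise of Rrm2 was 2.77 without rat 95 and 3.16 without rat 139, and that of Mki67 was 2.18 and 2.5.

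The promoters of 7 genes that carry the main results are shown first, as the 150 bases before the annotated start from RefSeq (build GRCr8), each written 5′ to 3′ on the gene's own strand. Mcm6, Mcm2 and Mcm5, helicase subunits higher at all 3 sizes, are shown with E2F letters in capitals (TTTCCCGC, TTTGGCGC, TTTCGCGC or TTTGCCGC on either strand, matches may overlap). Cdk1, the kinase that starts mitosis, is shown with E2F letters, CCAAT and the letters TTTGAA of the cell cycle homology region in capitals on either strand. Cyp2c11, Pros1 and Fmo1, liver genes lower at all 3 sizes, are shown with TATAAA, the STAT letters TTCNNNGAA and the C/EBP letters TTGCNNCAA in capitals in that order. The letters marked differ between these genes, so the capitals show no shared pattern and name no regulator.
Mcm6 chr13:42404353-42404502 (minus strand): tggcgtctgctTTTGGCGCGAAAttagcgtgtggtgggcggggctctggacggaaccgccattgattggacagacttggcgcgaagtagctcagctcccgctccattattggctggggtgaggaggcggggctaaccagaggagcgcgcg
Mcm2 chr4:122918095-122918244 (minus strand): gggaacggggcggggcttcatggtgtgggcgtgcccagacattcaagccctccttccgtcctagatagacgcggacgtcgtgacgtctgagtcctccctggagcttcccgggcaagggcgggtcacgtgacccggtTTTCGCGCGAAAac
Mcm5 chr19:13488663-13488812 (plus strand): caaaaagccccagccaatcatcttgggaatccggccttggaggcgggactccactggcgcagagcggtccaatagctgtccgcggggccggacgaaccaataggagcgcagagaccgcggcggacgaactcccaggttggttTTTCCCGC
Cdk1 chr20:19265143-19265292 (plus strand): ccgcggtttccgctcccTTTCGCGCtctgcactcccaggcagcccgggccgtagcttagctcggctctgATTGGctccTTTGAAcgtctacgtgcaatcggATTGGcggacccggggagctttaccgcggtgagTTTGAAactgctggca
Cyp2c11 chr1:246175066-246175215 (plus strand): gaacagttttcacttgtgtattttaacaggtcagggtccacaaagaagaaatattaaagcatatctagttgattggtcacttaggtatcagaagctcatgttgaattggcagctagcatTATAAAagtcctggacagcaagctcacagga
Pros1 chr11:13677149-13677298 (plus strand): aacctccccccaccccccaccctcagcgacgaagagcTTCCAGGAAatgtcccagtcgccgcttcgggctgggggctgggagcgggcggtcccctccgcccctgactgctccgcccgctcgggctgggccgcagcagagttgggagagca
Fmo1 chr13:77747667-77747816 (minus strand): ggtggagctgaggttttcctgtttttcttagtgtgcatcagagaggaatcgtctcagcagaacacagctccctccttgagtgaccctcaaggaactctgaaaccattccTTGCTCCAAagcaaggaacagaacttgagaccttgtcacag

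Over the 250 bases before the start, E2F letters stood in 15 of the 208 promoters found for genes higher at all 3 sizes (7.21%) and in 3 of the 320 found for genes lower at all 3 sizes (0.938%). They stood in 2.46% of the 14502 promoters of tested genes and in 1.81% of the 27457 promoters of the table. The 15 were those of Mcm2, Mcm5, Mcm6, Ranbp1, Zfp367, Rnps1, Tbrg1, Elof1, Jpt2, C1h11orf58, Mdh2, Med9, Ndufaf5, Uxs1 and Vapb. The ETS letters CCGGAAG stood in 20.2% of the promoters of the genes that were higher, 13.8% of those of the genes that were lower and 10.8% of those of all tested genes. CCAAT stood in 39.4%, 37.5% and 35.2%, TTTGAA in 14.4%, 11.6% and 14.3%, TATAAA in 8.65%, 6.56% and 11.3%, and TTCNNNGAA in 5.29%, 5.31% and 6.83% of the same promoters. A match describes letters, not a bound site, and these shares were not tested.

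In the pooled contrast, 2738 of 18166 genes (15.1%) were higher after resection and 2149 (11.8%) were lower, at an adjusted p below 0.05 from limma over all genes. Of these, 2445 and 2037 lay on the same side of sham in the mean of every resected group. Of all 18166 genes, 399, 1906 and 3619 were called higher than sham at PH30, PH70 and PH90, and 606, 1480 and 2671 lower. Of the genes higher in the pooled contrast, 241 were also called higher at all 3 sizes, 1220 at 2 sizes, 1240 at 1 size and 37 at none. Of those that were lower, 385 were called at all 3 sizes, 827 at 2, 863 at 1 and 74 at none. Most calls at 1 size came from the largest resection: 935 of the 1240 genes and 724 of the 863 were called at PH90 alone, against 284 and 109 at PH70 alone and 21 and 30 at PH30 alone. A pooled call therefore often rests on 1 group, and the genes described as shared are the 241 (1.33% of all genes) and the 385 (2.12%). The 3 comparisons use the same 6 sham arrays, so a sham value far from its group moves all 3 at once.

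**Figure D1:**
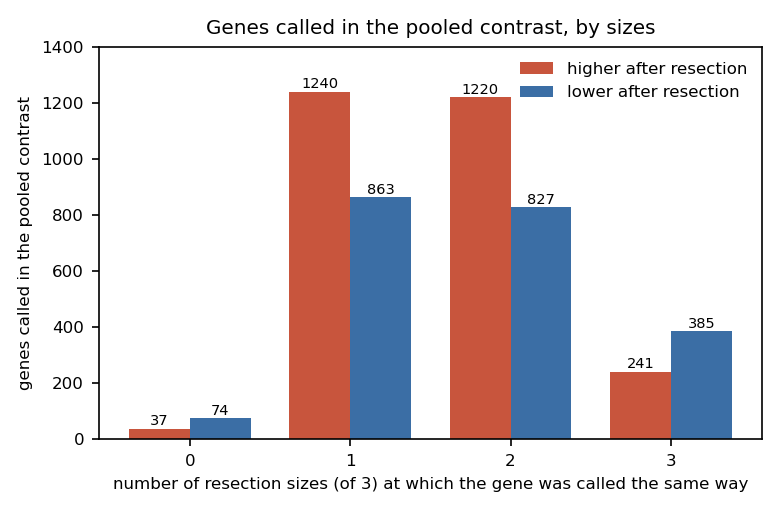
Bars count the genes called in the pooled contrast (y axis) by the number of resection sizes at which the same gene was called in the same direction against sham (x axis), in red for genes higher and in blue for genes lower after resection. Genes called at 1 or 2 sizes (1240 and 1220 higher, 863 and 827 lower) outnumber those called at all 3 (241 and 385).

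Most shared genes changed most after the largest resection. Among the 241 the median change was 0.41 at PH30, 0.57 at PH70 and 0.74 at PH90, and among the 385 it was -0.45, -0.56 and -0.77. The change was largest at PH90 in 151 and 288 of them, at PH70 in 80 and 66, and at PH30 in 10 and 31. The order 30%, 70%, 90% held in the means of 135 and 237. The PH70 values here include rat 139, which lay nearest to sham in both sets. For the 241, the median rat's mean over the genes was 0.42 at PH70 and 0.47 at PH90, so these sizes lay close. For the 385 it was -0.3 and -0.62. Limma's F test found a difference between the sizes in 5882 of all genes (32.4%), among them 145 of the 241 and 186 of the 385. Of the pairs of sizes, PH90 against PH30 gave a larger change at PH90 in 127 and 195 genes and a smaller one in 0 of either set, by the test of the pair adjusted over all genes. PH90 against PH70 gave a larger change in 79 and 157 genes and a smaller one in 21 and 1.

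The means over the 2 gene sets on each array show the spread among rats. These genes were chosen on these arrays, so the means are a description. For the 241, the 6 sham rats lay between -0.39 and -0.35, PH30 rats between -0.01 and 0.21, and PH90 rats between 0.32 and 0.54. PH70 rats lay between 0.41 and 0.46 but for rat 139 at -0.11, and unoperated rats lay between -0.31 and -0.22. For the 385, sham rats lay between 0.35 and 0.44, PH30 rats between -0.21 and -0.01, and PH90 rats between -0.71 and -0.33. PH70 rats lay between -0.37 and -0.25 but for rat 139 at 0.17, and unoperated rats lay between 0.25 and 0.43. Rat 139 was thus the resected rat nearest to sham in both sets. Without rats 95 and 139 the counts rose to 450 and 521 genes, of which 237 and 371 are among those called with all rats. Leaving out 1 rat at a time gave 150 to 412 and 263 to 547 genes. The first count fell to 150 without sham rat 114 and to 159 without PH30 rat 130, and rose to 412 without PH70 rat 139. In all 24 such fits, 102 of the 241 and 202 of the 385 were called at all 3 sizes.

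**Figure D2:**
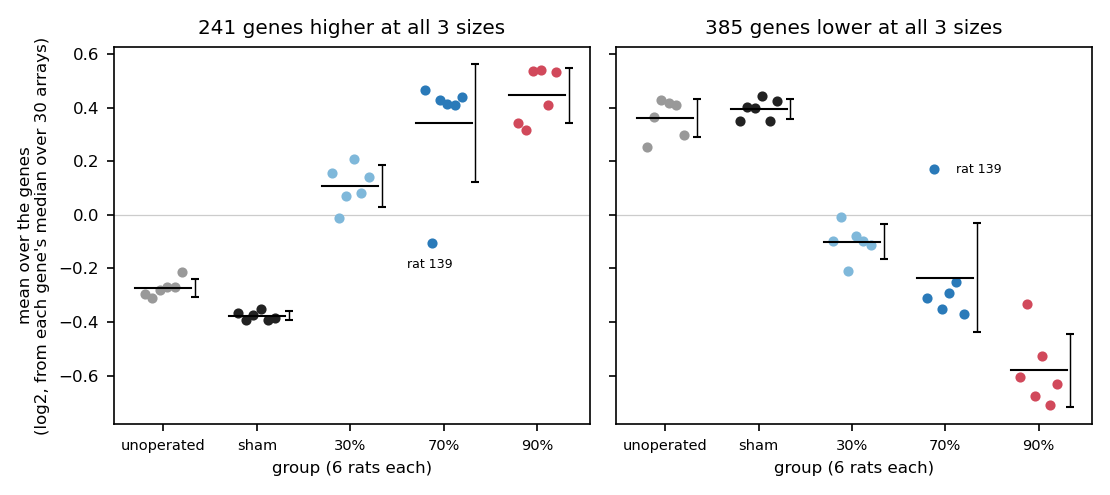
Each point is 1 rat, and the y axis is the mean over the 241 genes higher (left) or the 385 genes lower (right) at all 3 sizes, in log2 from each gene's median. The horizontal line is the mean of 6 rats and the bar beside it 1 SD. The 5 groups stand on the x axis, and PH70 rat 139, at -0.11 and 0.17, stands away from the other PH70 rats.

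Without any test, 85 genes (0.468%) had all 18 resected rats above all 6 sham rats, and 143 (0.787%) had them all below. Of the shared genes, 62 of the 241 and 110 of the 385 were free of overlap in this way, and 28 and 60 changed at least 2-fold in the pooled contrast. At the edge of the rule, the largest of the 3 adjusted p values was just under 0.05 for Adck5 (-0.40, -0.33 and -0.78 at PH30, PH70 and PH90) and just over it for Arhgap5 (-0.54, -0.40 and -0.31) and Pop7 (0.31, 0.61 and 0.76).

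**Figure D3:**
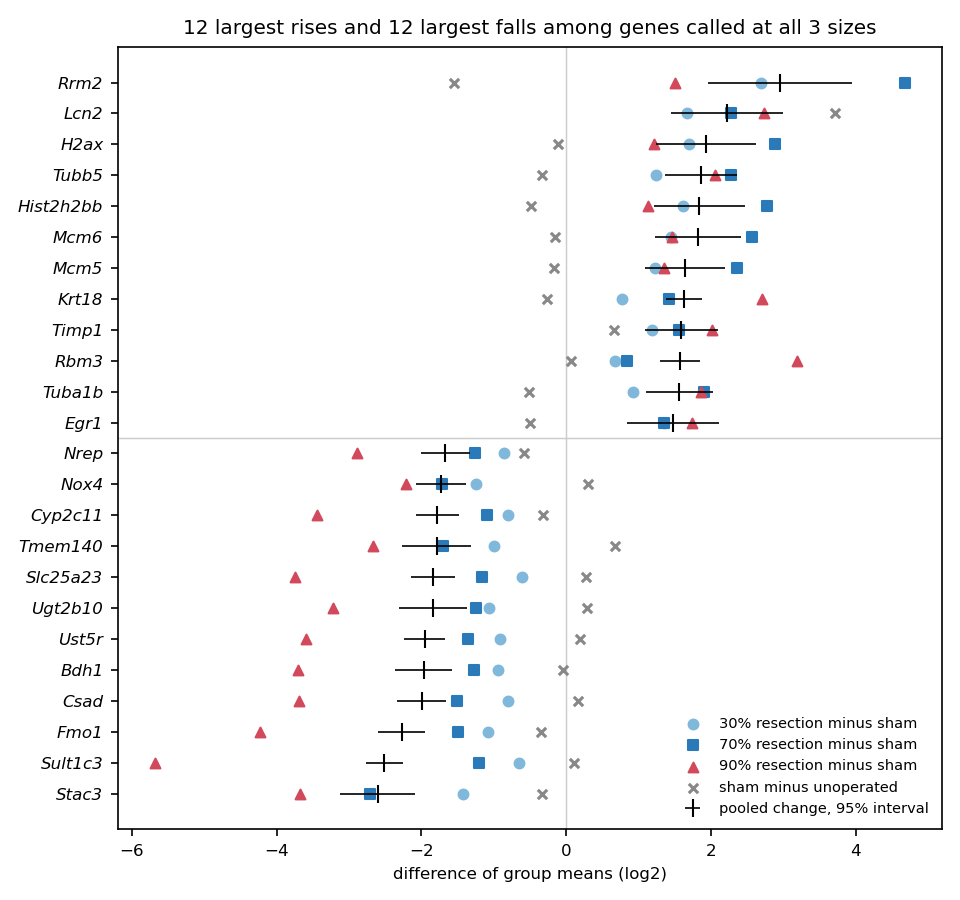
For the 12 largest rises (top) and 12 largest falls (bottom) among genes called at all 3 sizes, the x axis gives the difference of group means in log2 for each size against sham (coloured symbols) and for sham against unoperated rats (grey crosses), and the black bar is the pooled change with its 95% interval. Sult1c3 and Fmo1 fell furthest at 90%, whereas Rrm2 and Mcm6 peaked at 70%.

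DNA replication genes were higher after resection as a group: 35 of the 38 measured passed the pooled test upward and 0 downward, beside 15.1% of all genes. Their median pooled change was 0.77, against 0.00 over all genes, and the medians at the 3 sizes were 0.51, 1.10 and 0.67. At PH30 11 were higher, at PH70 35 and at PH90 28, beside 399, 1906 and 3619 of all 18166 genes. At all 3 sizes 10 were higher, beside 241 of all genes. These 10 were the ribonucleotide reductase subunit Rrm2, the helicase subunits Mcm6, Mcm5, Mcm2 and Mcm3, the sliding clamp Pcna, the ligase Lig1, the licensing inhibitor Gmnn and the clamp loader subunits Rfc2 and Rfc3. The count of 10 depends on the rats and on the fit. It was 24 without PH70 rat 139, 2 without sham rat 141 and 19 without rats 95 and 139. With only the 24 compared arrays in the fit, without the spread of the unoperated rats, it was 2. It was 6 with unoperated rats as the control, 24 after a further quantile normalization and 30 with robust regression.

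Mcm6, a subunit of the replicative helicase, ranged from -0.86 to -0.49 in sham rats with a median of -0.65. In PH30 rats it ranged from -0.00 to 2.13 with a median of 0.57, in PH70 rats from 0.00 to 2.44 with a median of 2.22, and in PH90 rats from -0.24 to 1.71 with a median of 1.03. All 18 resected rats lay above all sham rats, and the highest PH30 rat was rat 95 and the lowest PH70 rat was rat 139. The pooled rise was 1.82 ± 0.29 (SE, 18 against 6 rats), a fold of 3.53 with an adjusted p of 1.64e-05, and the call at all 3 sizes held in all 24 fits that left out 1 rat. Against unoperated rats the same average was 1.67 higher, with an adjusted p of 4.99e-05. Mcm2 rose by 1.16 and was kept in 24 of 24 fits, and Mcm5 by 1.64, kept in 21 of 24.

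Rrm2, which makes the building blocks of DNA, had the largest pooled rise of the shared genes, 2.96 ± 0.49 (SE), with an adjusted p of 2.7e-05. Sham rats lay between -2.01 and -1.46, PH30 rats between -0.48 and 3.78, PH70 rats between -0.05 and 3.99, and PH90 rats between -1.78 and 0.89. PH90 rat 61, at -1.78, lay among the sham rats, and the adjusted p at PH90 was 0.0493, so the call at all 3 sizes held in only 8 of 24 fits. Unoperated rats lay between -0.72 and 0.20, above every sham rat, and the pooled change against them was 1.41. H2ax, the histone variant that marks broken DNA, ranged from -1.0 to -0.58 in sham rats, from -0.00 to 3.03 in PH30 rats, from -0.09 to 2.83 in PH70 rats and from -0.05 to 1.24 in PH90 rats. All 18 resected rats lay above all sham rats, while the resected groups overlapped each other. The pooled rise was 1.93 ± 0.34 (SE) with an adjusted p of 5.88e-05, and the call at all 3 sizes was lost only without PH90 rat 43. Hist2h2bb, an H2B histone whose probes may not separate it from near-identical copies, rose by 1.84 and was kept in 24 of 24 fits.

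Mitosis genes were also higher in the pooled contrast, 43 of 43 measured beside 15.1% of all genes, with a median of 1.25. Limma called 0 of the 43 at all 3 sizes, beside 241 of all 18166 genes. At an unadjusted p below 0.05 at each size 6 mitosis genes were higher, beside 845 of all 18166 genes. At PH70 43 of 43 were called, at PH30 6 and at PH90 3, with medians of 2.02, 0.97 and 0.47. Of all 18166 genes 1906, 399 and 3619 were called higher at these sizes. At PH90 the share was thus lower among mitosis genes than among all genes. Without rats 95 and 139, 18 were called at all 3 sizes, and without PH70 rat 139 alone 6 were. Mki67, the proliferation antigen, ranged from -2.02 to -1.16 in sham rats, from -0.55 to 3.10 in PH30 rats, from -0.26 to 3.0 in PH70 rats and from -1.99 to 0.78 in PH90 rats. The PH90 rats overlapped sham, and the unoperated rats, from -0.05 to 0.19, lay above every sham rat. Its pooled rise was 2.34 ± 0.42 (SE) with an adjusted p of 9.56e-05, while against unoperated rats the difference was 0.77 with an adjusted p of 0.206.

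Cdk1, whose promoter is shown above, changed by 1.19, 2.50 and 0.62 at PH30, PH70 and PH90 (adjusted p 0.0759, 4.8e-05 and 0.263), and its pooled rise was 1.44. Top2a, the topoisomerase that untangles chromosomes, Ccna2, cyclin A, and Plk1, a mitotic kinase, had pooled rises of 2.19, 1.94 and 1.71. The mean over the 43 genes lay between -0.61 and -0.44 in sham rats and between -0.07 and 0.14 in unoperated rats. The median difference of sham from unoperated rats was -0.58, and with unoperated rats as the control 11 of the 43 genes were higher after resection. The size of the pooled mitotic difference thus depends on the control group, and the part of the operation in the low sham values was not tested.

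**Figure D4:**
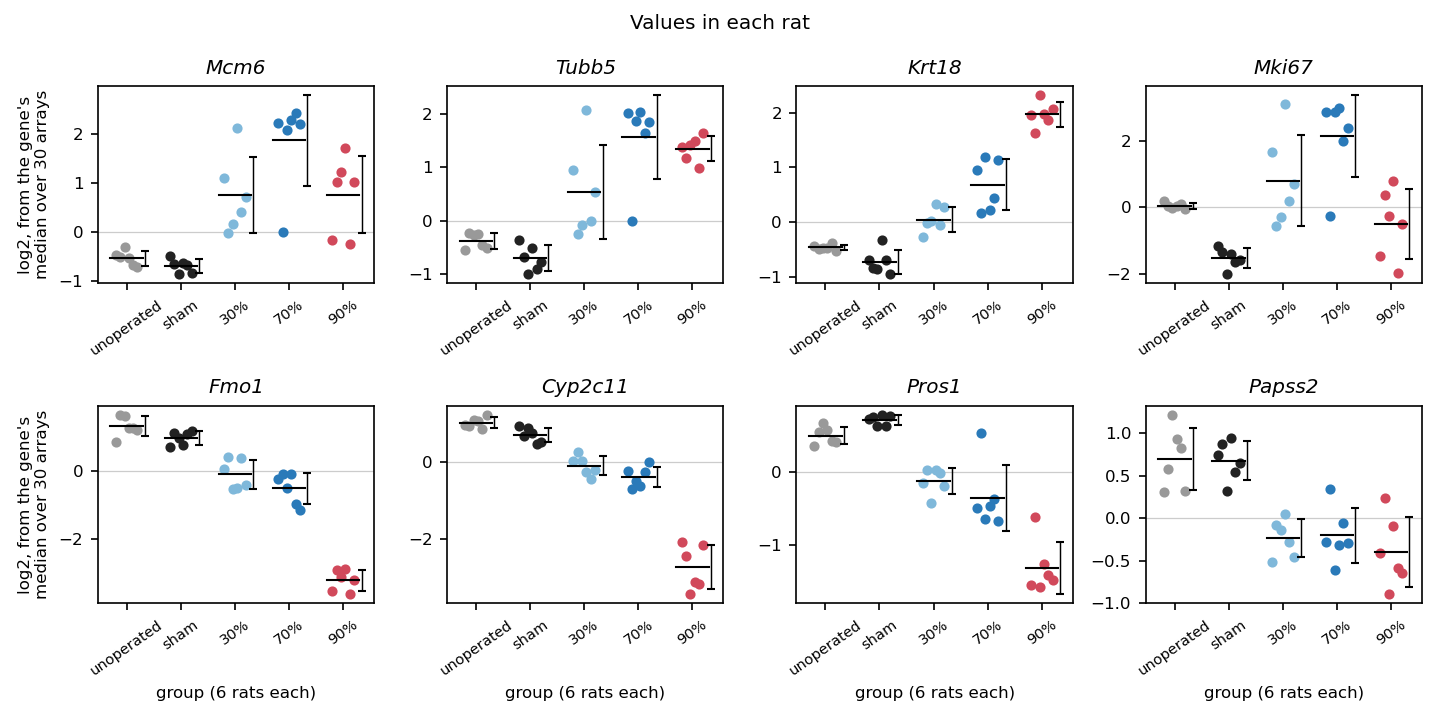
Each point is 1 rat, the y axis is the log2 value from the gene's median over 30 arrays, the horizontal line is the mean of 6 rats and the bar 1 SD. Mcm6, Tubb5, Krt18, Fmo1, Cyp2c11 and Pros1 separate all resected from all sham rats, while Mki67 at 90% overlaps sham.

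Genes of the entry into the cell cycle were higher in 15 of 23 measured and lower in 1, beside 15.1% and 11.8% of all genes. The list's median changes were 0.11, 0.36 and 0.68 at the 3 sizes. Ccnd1, cyclin D1, changed by 0.69, 1.5 and 2.06 at the 3 sizes (adjusted p 0.166, 0.000353 and 9.57e-07), and Ccne1, cyclin E1, by 0.76, 1.63 and 1.27. Egr1, an immediate early transcription factor, was the member higher at all 3 sizes, by 1.34, 1.36 and 1.74. Its sham rats lay between -1.55 and -0.02, PH30 rats between -1.25 and 1.66, PH70 rats between -0.34 and 0.94 and PH90 rats between -0.11 and 1.80, so each resected group overlapped sham. The pooled rise was 1.48 ± 0.31 (SE), with an adjusted p of 0.000485, and the call at all 3 sizes held in 16 of 24 fits. Dusp1, a phosphatase that switches off MAP kinases, was the member lower at all 3 sizes, by -1.09, -1.57 and -1.20, kept in 21 of 24 fits. Myc, a growth regulator, had a pooled rise of 0.66, with 1.33 at PH90 and an adjusted p of 0.629 at PH30. Of 18 targets of p53, 7 were higher and 4 lower, beside 15.1% and 11.8% of all genes. Limma called 0 of them at all 3 sizes. At an unadjusted p below 0.05 at each size 1 was higher, beside 845 of all 18166 genes. The cell cycle inhibitor Cdkn1a changed by 0.34, 1.23 and 1.67, and Tnfrsf10b, a death receptor, by 0.46, 0.68 and 1.82.

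Cytoskeleton genes were higher in 25 of 33 measured and lower in 0, beside 15.1% and 11.8% of all genes, with medians of 0.26, 0.52 and 1.14. Beside 241 of all 18166 genes, 6 of the list were higher at all 3 sizes: Tubb5, Krt18, Tuba1b, S100a10, Pfn1 and Actb. That count ran from 3 without PH30 rat 99 to 8 without PH30 rat 140, and was 10 without rats 95 and 139. Krt18, the keratin that with Krt8 forms the filaments of hepatocytes, ranged from -0.96 to -0.33 in sham rats, from -0.28 to 0.32 in PH30 rats, from 0.17 to 1.18 in PH70 rats and from 1.63 to 2.32 in PH90 rats. No resected rat reached the sham range and PH90 did not overlap PH70. The pooled rise was 1.63 ± 0.12 (SE), a fold of 3.10 with an adjusted p of 1.15e-10. Tubb5, a beta tubulin, ranged from -1.0 to -0.35 in sham rats, from -0.24 to 2.08 in PH30 rats, from -0.01 to 2.04 in PH70 rats and from 0.98 to 1.65 in PH90 rats. Its pooled rise was 1.86 ± 0.24 (SE), with an adjusted p of 1.15e-06, and PH90 exceeded PH30 by 0.81 (95% interval 0.20 to 1.42, adjusted p 0.037). Tubb6 had a larger pooled rise, 2.30, with all resected above all sham rats, but the adjusted p at PH30 was 0.0616. Tuba1b, an alpha tubulin, rose by 1.56 and was kept in 10 of 24 fits.

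Genes of protein synthesis and turnover were higher mainly with the larger resections. Their pooled counts are read beside the 15.1% of all genes called higher and the 11.8% called lower. At all 3 sizes 241 of all 18166 genes were higher. Proteasome subunits were higher in 24 of 30, with medians of 0.06, 0.31 and 0.82, and Psma5 and Psmd3 were higher at all 3 sizes in the fit of all rats, kept in 17 and 12 of 24 fits. Ribosome biogenesis factors were higher in 20 of 26, with 0 called at PH30, 13 at PH70 and 26 at PH90. Of all 18166 genes 399, 1906 and 3619 were called higher at these sizes. The box C/D factors Nop58 and Nop56 changed by 0.05 and 0.05 at PH30 and by 1.61 and 1.36 at PH90. Of 19 aminoacyl-tRNA synthetases, which charge tRNAs, 11 were higher and 0 lower, with 0 higher at PH30, and against unoperated rats 7 were higher and 3 lower. Rbm3, a cold-inducible RNA-binding protein, was called at all 3 sizes and rose by 0.68, 0.84 and 3.19. Its PH90 rats lay between 1.98 and 2.90, its sham rats between -0.99 and -0.36, and PH30 rat 140, at -0.45, and PH70 rat 139, at -0.41, lay within the sham range.

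The mean changes of some rises lay close after every resection. Of the shared genes with a pooled change of at least 0.7, the most even rises were Sem1, Pom121, Egr1, Pole3, Prrc2a, Hmgn1, Clic1 and Nacc1. Sem1, a small subunit of the proteasome lid, rose by 0.75, 0.79 and 0.82. Its sham rats lay between -0.58 and -0.40, PH30 rats between 0.28 and 0.52 but for rat 95 at -0.43, PH70 rats between -0.00 and 0.74 and PH90 rats between -0.09 and 0.60. Its difference of PH90 from PH30 was 0.06 with a 95% interval of -0.24 to 0.36. Hmgn1, a nucleosome-binding protein, rose by 1.04, 1.5 and 1.11 with a pooled fold of 2.33 and an adjusted p of 3.49e-06. Its sham rats lay between -1.03 and -0.78, PH30 rats between -0.03 and 0.42 and PH90 rats between -0.24 and 0.56, and PH70 rats between 0.55 and 1.29 but for rat 139 at -0.83. Clic1, a chloride channel protein, rose by 0.77, 0.90 and 1.14 with no overlap between resected and sham rats, and PH90 exceeded PH30 by 0.37 (95% interval 0.09 to 0.65, adjusted p 0.0382). All 3 were kept in 24 of 24 fits. Each interval allows differences up to its ends, so evenness here means only that the means lay close. The ranking also includes PH70 rat 139. The median of Hmgn1 was 0.16 in PH30 rats, 0.87 in PH70 rats and 0.29 in PH90 rats, so its evenness rests on that rat. Rat 139 was also the lowest PH70 rat for Pole3, at -0.62 with the others from 0.42, and for Prrc2a, at -0.46 with the others from 0.53.

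**Figure D5:**
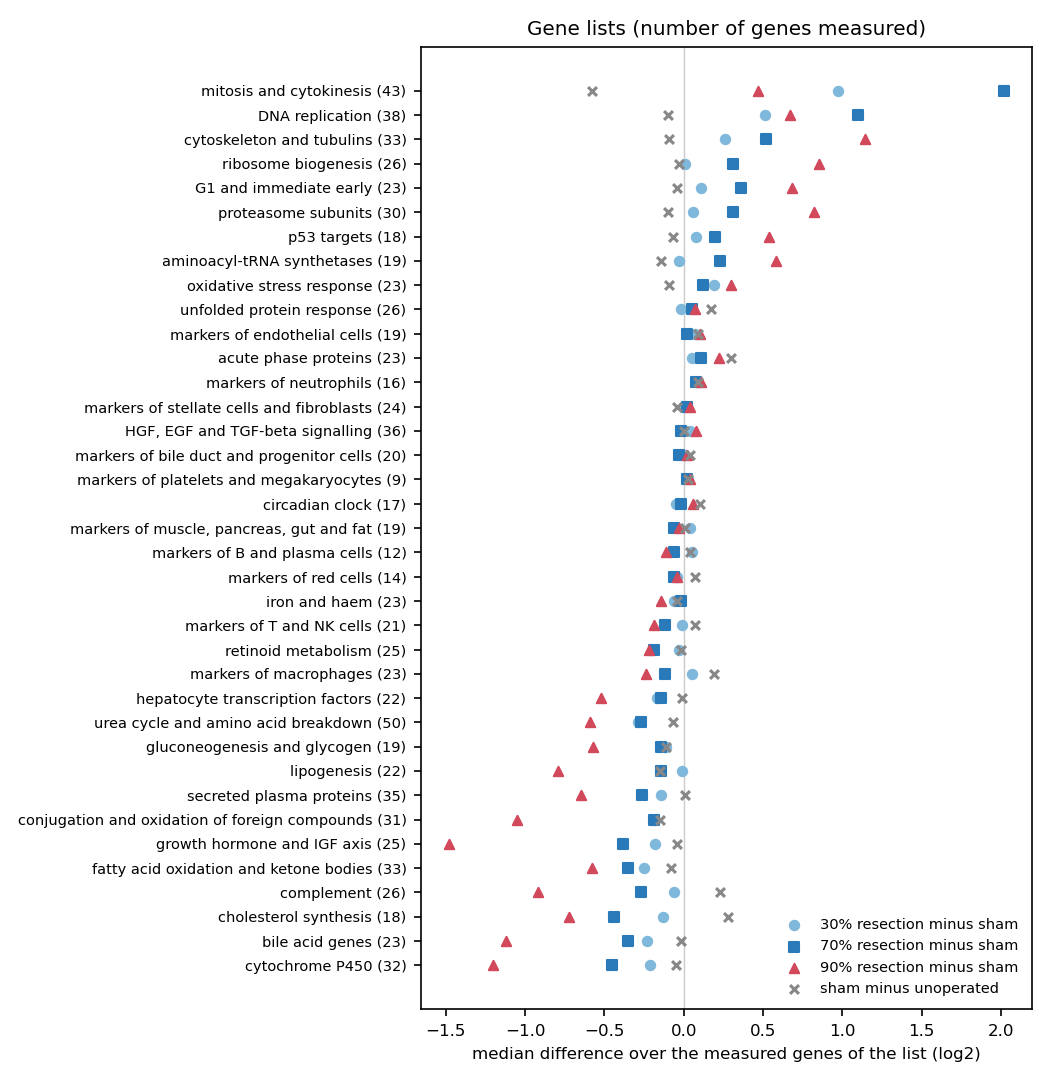
For each gene list (number of genes measured in brackets), symbols give the median over its genes of the change in log2 at 30% (light blue circle), 70% (dark blue square) and 90% (red triangle) against sham, and of sham against unoperated rats (grey cross). DNA replication and mitosis peak at 70%, and most metabolic and secretory lists lie lowest at 90%.

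Many genes that handle foreign compounds were lower after resection, though not all. Of 32 cytochrome P450 genes 19 were lower and 2 higher, beside 11.8% of all genes lower, and the medians were -0.21, -0.45 and -1.20. Beside 385 of all 18166 genes, 6 of the 32 were lower at all 3 sizes: Cyp2c11, Cyp2j3, Cyp2d3, Cyp2c23, Cyp2d2 and Cyp4f1. That count of 6 ran from 4 without PH30 rat 65 to 7 without PH30 rat 140. Family members are close in sequence, and probes may not part them fully. Cyp2c11, the male-typical steroid hydroxylase under growth hormone control, ranged from 0.46 to 0.92 in sham rats, from -0.45 to 0.25 in PH30 rats, from -0.70 to -0.01 in PH70 rats and from -3.45 to -2.08 in PH90 rats. Resected and sham rats did not overlap, and PH90 stood clear of the other sizes. The pooled change was -1.78 ± 0.14 (SE), with an adjusted p of 6.82e-10, and the change at each size was -0.81, -1.09 and -3.44. Cyp2c22 and Cyp4a1 were the 2 higher in the pooled contrast.

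Of 31 genes of conjugation and flavin oxidation 15 were lower and 2 higher, beside 11.8% and 15.1% of all genes. Beside 385 of all 18166 genes, 6 of the 31 were lower at all 3 sizes: Sult1c3, Fmo1, Ugt2b10, Inmt, Gstt2 and Sult1a1. Fmo1, a flavin monooxygenase, ranged from 0.74 to 1.21 in sham rats, from -0.52 to 0.42 in PH30 rats, from -1.15 to -0.08 in PH70 rats and from -3.65 to -2.90 in PH90 rats. All 18 resected rats lay below all sham rats, and it was 4.82-fold lower in the pooled contrast, with an adjusted p of 5.12e-11. Sult1c3, a sulfotransferase, ranged from 0.41 to 0.68 in sham rats, from -0.47 to 0.06 in PH30 rats, from -1.02 to 0.24 in PH70 rats and from -5.77 to -4.86 in PH90 rats. The changes of -0.66, -1.21 and -5.67 make its pooled mean of -2.51 a value that no resected group showed. Papss2, which makes the sulfate donor, fell evenly by comparison, by -0.91, -0.88 and -1.08. Its sham rats lay between 0.32 and 0.95, PH30 rats between -0.51 and 0.05, PH70 rats between -0.62 and 0.35 and PH90 rats between -0.90 and 0.24. PH70 rat 139 alone reached the sham range, and the difference of PH90 from PH30 was -0.16 with a 95% interval of -0.52 to 0.19.

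Secreted plasma proteins were lower in 27 of 35 measured and higher in 0, beside 11.8% and 15.1% of all genes, with medians of -0.14, -0.26 and -0.65. Beside 385 of all 18166 genes, 7 of the list were lower at all 3 sizes. These were the clotting factors F5, F11 and F9, the anticoagulants Pros1 and Proc, plasminogen (Plg) and the apolipoprotein Apoc2, and the count ran from 4 without sham rat 143 to 10 without PH70 rat 139. Pros1, protein S, ranged from 0.62 to 0.78 in sham rats, from -0.43 to 0.03 in PH30 rats, from -0.68 to 0.53 in PH70 rats and from -1.58 to -0.62 in PH90 rats. No resected rat reached the sham range, with rat 139 the nearest at 0.53. The pooled change was -1.31 ± 0.12 (SE), 2.49-fold lower with an adjusted p of 6.59e-09, and against unoperated rats it was -1.10. F9 and Proc changed by -0.64 and -0.43 and, like Pros1, were kept in 24 of 24 fits. Alb, albumin, did not pass: its pooled change was -0.04, with an adjusted p of 0.292. Of 26 complement genes 18 were lower and 0 higher, beside 11.8% and 15.1% of all genes. C8g and Clu were lower at all 3 sizes, a count that was 1 without PH30 rat 65 and 4 without PH70 rat 139. The list's medians were -0.06, -0.27 and -0.92, and sham lay above unoperated rats by a median of 0.23. With unoperated rats as the control only 7 of the 26 were lower and 5 were higher.

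Amino acid and urea cycle genes were lower in 25 of 50 and higher in 2, and Csad, Sds, Otc and Ivd were lower at all 3 sizes. The counts of this list and the next are read beside the 11.8% of all genes called lower and the 15.1% called higher. At all 3 sizes 385 of all 18166 genes were lower. Csad, which makes taurine from cysteine, ranged from 0.25 to 1.03 in sham rats, from -0.52 to 0.21 in PH30 rats, from -1.38 to 0.40 in PH70 rats and from -3.30 to -2.62 in PH90 rats. Only PH70 rat 139, at 0.40, lay in the sham range. The pooled change was -2.0 ± 0.17 (SE), with an adjusted p of 1.06e-09. Fatty acid oxidation genes were lower in 21 of 33 and higher in 2, and Bdh1, Acsl1 and Slc25a20 were lower at all 3 sizes. That count of 3 was 1 without PH30 rat 65 and 4 without PH30 rat 140. Bdh1, which makes the ketone body hydroxybutyrate, ranged from 0.55 to 1.0 in sham rats, from -0.47 to 0.30 in PH30 rats, from -0.96 to 0.79 in PH70 rats and from -3.76 to -2.19 in PH90 rats. PH70 rat 139 held the 0.79, and the pooled change was -1.97 ± 0.19 (SE), with an adjusted p of 1.05e-08.

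The next lists, from bile acids to hepatocyte transcription factors, are read beside the 11.8% of all genes called lower and the 15.1% called higher. At all 3 sizes 385 of all 18166 genes were lower. Bile acid genes were lower in 13 of 23 and higher in 1, with Cyp27a1, a sterol hydroxylase, and Hsd3b7 lower at all 3 sizes (1 of them without PH30 rat 65). Slc10a1, the bile acid uptake carrier, had all resected below all sham rats and changed by -0.42, -0.83 and -3.31, with an adjusted p of 0.14 at PH30. Cyp7a1, the rate-limiting enzyme of bile acid synthesis, passed the pooled test (-1.12, adjusted p 0.0339) through PH90 alone: the changes were 0.11, -0.07 and -3.40. The pooled call was lost without sham rat 141, 41 or 45, with an adjusted p of up to 0.139. Cholesterol synthesis genes were lower in 10 of 18, with 0 at PH30 and a median of -0.53. Sham lay above unoperated rats by a median of 0.28 in this list, and with unoperated rats as the control 5 of the 18 were lower, with a median of -0.23. Lipogenic genes were lower in 11 of 22 and higher in 3, and genes of gluconeogenesis and glycogen in 9 and 2 of 19. Dgat2, which makes triglyceride, and Ugp2, which makes the glycogen precursor, were lower at all 3 sizes, each kept in 16 and 15 of 24 fits. Hepatocyte transcription factors were lower in 8 of 22 and higher in 1, with 0 called at all 3 sizes by limma. At an unadjusted p below 0.05 at each size 2 were lower, beside 968 of all 18166 genes. The bile acid receptor Nr1h4 changed by -0.46, -0.62 and -1.80 and Cebpa, which holds hepatocytes at rest, by -0.47, -0.61 and -1.40.

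The lists from the growth hormone axis to the clock are read beside the 11.8% of all genes called lower and the 15.1% called higher. At all 3 sizes 385 of all 18166 genes were lower. Genes of the growth hormone and IGF axis were lower in 14 of 25 and higher in 1. Cyp2c11, Egfr and Mup4 were lower at all 3 sizes, a count that was 1 without PH30 rat 130 and 5 without PH70 rat 139. Mup4 belongs to a family of near-identical copies that probes may not part. Igf1 itself changed by -0.09, -0.22 and -0.37, a pooled change of -0.23 with an adjusted p of 0.00436. Socs2, the feedback inhibitor of growth hormone signalling, changed by -0.75, -0.94 and -2.93. Egfr, the receptor of EGF, changed by -0.42, -0.68 and -1.78, 1.94-fold lower in the pooled contrast, with a call at all 3 sizes kept in 17 of 24 fits. Of 36 genes of HGF, EGF and TGF-beta signalling 7 were higher and 6 lower, shares near the 15.1% and 11.8% of all genes. Hgf, the hepatocyte growth factor, missed the threshold, with a pooled change of -0.37 and an adjusted p of 0.106. It was called lower in only 1 of 24 fits, that without PH70 rat 139 (-0.43, adjusted p 0.0269). Over these fits its adjusted p reached 0.21. Of 23 iron and haem genes 4 were higher and 8 lower, beside 15.1% and 11.8% of all genes. The iron exporter Slc40a1, Hfe and Fech, which completes haem, were lower at all 3 sizes. Of these, 0 kept the call without PH30 rat 65. Retinoid genes were lower in 9 of 25, among them Dhrs3, a retinal reductase, which changed by -0.46, -0.72 and -2.65 with no overlap and was kept in 24 of 24 fits. Clock genes were lower in 3 of 17 and higher in 0, beside 11.8% and 15.1% of all genes. Against unoperated rats they were lower in 3 and higher in 5.

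Several large falls lie outside the lists. Stac3, an adaptor known from muscle calcium channels, had the largest pooled fall of the shared genes, -2.60 ± 0.25 (SE), with an adjusted p of 1.13e-08. The sham rats lay between 0.74 and 1.48, PH30 rats between -2.26 and 1.04, PH70 rats between -1.74 and -0.73 and PH90 rats between -2.79 and -2.15. The highest PH30 rat, rat 140, lay in the sham range and the lowest was rat 95. Nox4, an NADPH oxidase, changed by -1.24, -1.72 and -2.21, with sham rats between 0.71 and 1.86 and resected rats between -1.09 and 0.99. Ust5r and Nrep changed by -1.96 and -1.67 in the pooled contrast, and all 4 genes were kept in 24 of 24 fits.

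The most even falls were those of RT1-Bb, Tmem170a, Slc17a5, Manea, Cpped1, Sppl2a, Papss2 and Eif2ak1. Cpped1, a phosphatase, changed by -0.82, -0.97 and -0.91 with all resected below all sham rats. The sham rats lay between 0.49 and 0.76, PH30 rats between -0.50 and 0.40, PH70 rats between -0.76 and 0.37 and PH90 rats between -0.79 and 0.27. PH70 rat 139, which the ranking includes, held the 0.37, and the other PH70 rats lay between -0.76 and -0.35. Cpped1 was 1.87-fold lower, with an adjusted p of 1.05e-05, and the difference of PH90 from PH30 was -0.09 with a 95% interval of -0.44 to 0.25. RT1-Bb, a class II antigen-presenting chain, changed by -0.96, -1.01 and -1.01, but its pooled change against unoperated rats was -0.44 with an adjusted p of 0.137, and its call at all 3 sizes held in 19 of 24 fits. Eif2ak1, the haem-regulated kinase that slows translation, changed by -0.71, -0.88 and -0.78 and was kept in 24 of 24.

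Stress and acute phase lists were mixed. Their counts are read beside the 15.1% of all genes called higher and the 11.8% called lower in the pooled contrast. With unoperated rats as the control, 2534 of the 18166 genes were called higher and 2261 lower. Acute phase genes were higher in 8 of 23 and lower in 3, and Lcn2, lipocalin 2, and Timp1, an inhibitor of matrix proteases, were higher at all 3 sizes. Lcn2 lay between -2.32 and -0.24 in sham rats, between -1.69 and 1.59 in PH30 rats, between -0.26 and 1.74 in PH70 rats and between 1.09 and 1.37 in PH90 rats. Unoperated rats lay between -5.70 and -4.83, far below sham, so the sham operation came with a difference of 3.72 (adjusted p 1.38e-05) and resection with a further 2.23. The call of Lcn2 at all 3 sizes held in 18 of 24 fits and that of Timp1 in 20. A2m, alpha-2-macroglobulin, likewise differed by 3.29 between sham and unoperated rats and by 1.05 between resected and sham rats (adjusted p 0.0092). Without sham rat 112 the second difference was 0.68, with an adjusted p of 0.0657 that ended the call. With unoperated rats as the control 14 acute phase genes were higher, 12 at all 3 sizes. Genes of the unfolded protein response were higher in 6 of 26 and lower in 4 (10 and 2 against unoperated rats), with Manf, a secreted factor of the endoplasmic reticulum, higher and Sel1l, of its degradation machinery, lower at all 3 sizes, kept in 16 and 13 of 24 fits. Genes of the oxidative stress response were higher in 8 of 23 and lower in 2, but with unoperated rats as the control 8 were higher and 8 lower. Of this list, Gclm, of glutathione synthesis, was lower at all 3 sizes, kept in 16 of 24 fits.

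A pooled mean can hide opposite changes. At 2 sizes, 63 genes were called in opposite directions, 31 between PH30 and PH90, 44 between PH70 and PH90 and 0 between PH30 and PH70. Of these, Mtpn, myotrophin, was the gene that the pooled contrast called. It changed by -0.34, -0.39 and 0.26, with a pooled change of -0.16 and an adjusted p of 0.0464. That call held in only 7 of the 24 fits without 1 rat, where the adjusted p ran from 0.0177 to 0.105. The sham rats lay between -0.06 and 0.12, PH30 rats between -0.54 and -0.05, PH70 rats between -0.58 and -0.09 and PH90 rats between 0.21 and 0.51. Others were picked after their values were seen, and missed the pooled threshold. Rdh16, a retinol dehydrogenase, changed by -1.20, -0.77 and 1.87 with a pooled change of -0.03, Tdo2, tryptophan dioxygenase, by -0.54, -0.70 and 0.88, Slc7a2, an arginine carrier, by -0.44, -0.59 and 1.02, and Nr1i2, the xenobiotic receptor PXR, by -0.43, -0.49 and 0.34.

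Counts of markers of other cell types are read beside the 15.1% of all genes called higher and the 11.8% called lower in the pooled contrast. Macrophage markers were higher in 2 and lower in 4 of 23, neutrophil markers in 4 and 0 of 16, T and NK cell markers in 0 and 6 of 21, B and plasma cell markers in 0 and 2 of 12, and endothelial markers in 3 and 2 of 19. Stellate cell and fibroblast markers were higher in 5 and lower in 5 of 24, bile duct markers in 0 and 1 of 20, red cell markers in 0 and 4 of 14, platelet markers in 0 and 0 of 9, and markers of muscle, pancreas, gut and fat in 3 and 2 of 19. Which defining markers are at 0 cannot be read from centred values. The mean over the T and NK cell markers lay between 0.06 and 0.17 in sham rats, between -0.09 and 0.17 in PH30 rats, between -0.20 and 0.09 in PH70 rats and between -0.23 and -0.14 in PH90 rats, so only PH90 was clear of sham. The mean over the neutrophil markers lay between -0.22 and -0.03 in sham rats, between -0.12 and 0.19 in PH30 rats, between 0.03 and 0.49 in PH70 rats and between 0.07 and 0.34 in PH90 rats. PH70 and PH90 were clear of sham there and PH30 was not, and unoperated rats lay lower still, between -0.49 and -0.39. The mean over the macrophage markers lay between -0.03 and 0.24 in sham rats with a median of 0.08, and between -0.25 and 0.37 in PH30 rats with a median of 0.25. It lay between -0.18 and 0.37 in PH70 rats with a median of -0.06 and between -0.49 and 0.04 in PH90 rats with a median of -0.08, and every resected group overlapped sham. The mean over the red cell markers lay between 0.08 and 0.27 in sham rats and between -0.17 and -0.00 in PH90 rats, with PH30 (-0.08 to 0.28) and PH70 (-0.19 to 0.15) overlapping sham. With unoperated rats as the control, T and NK cell markers were lower in 3, red cell markers in 2 and macrophage markers in 3, while macrophage markers were higher in 5 and endothelial markers in 9. Their part in the results above was not tested.

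The beta globin Hbb-b1 was the 1 marker besides Lcn2 called at all 3 sizes. Sham rats lay between 0.63 and 1.15, resected rats between -0.77 and 0.51 and unoperated rats between -0.87 and 0.23. Sham exceeded unoperated rats by 1.14 (adjusted p 0.000373), and the pooled resections differed from unoperated rats by 0.22 (adjusted p 0.288). The alpha globins Hba-a3 and Hba-a1, which near-identical probes may not part, had pooled changes of -0.66 and -0.38 and differences of sham from unoperated rats of 0.83 and 0.54 (adjusted p 0.0633 and 0.0802). The fall of globin RNA is thus a difference from sham rats, and the part of blood in the tissue was not tested.

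Against unoperated rats, the same average of the 3 resections was called in the same direction in 226 of the 241 and 369 of the 385 shared genes. At all 3 sizes it was so in 105 and 265. Over all 18166 genes that control gave 2534 higher and 2261 lower, and 288 and 671 at all 3 sizes. Of the shared genes, sham itself differed from unoperated rats in the direction of resection in 1 and 5 and in the opposite direction in 4 and 3. Without the counts over all genes beside them, these last counts are only a description. The comparisons with the 2 controls share the resected arrays, on which the shared genes were chosen, so like directions were largely set in advance. The unoperated rats carry the numbers 145 to 152, all above those of the other rats, and the labels do not say what the numbers stand for. The 10978 probe sets with no gene symbol or several were tested apart, and 555 (5.06%) were higher and 424 (3.86%) lower after resection.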

How the data were processed

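The authors deposited log2 values for 29489 probe sets on 30 arrays, made with RMA in Affymetrix Expression Console per the submitters' processing notes. Their versions are not stated in the sources at hand. The table states neither scale nor centring. Log2 is taken from RMA, and every probe set has a median of 0 over the arrays within 5e-07, so differences are kept and levels are lost, and no filter on low values was possible. Column medians lie between -0.009 and 0.022. The number of arrays limits the precision.

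Probe sets with exactly 1 gene symbol in the platform's annotation (18511) gave 18166 genes, and the 291 genes with several probe sets were averaged. Limma 3.58.1 in R 4.3.3 fitted 1 mean per group over all 30 arrays (lmFit, eBayes, 25 residual and 3.71 prior degrees of freedom). The contrast was the mean of the PH30, PH70 and PH90 means minus sham, with each size against sham, pairs of sizes, an F test between sizes, and sham and the resections against unoperated rats beside it. P-values are two-sided and adjusted by Benjamini-Hochberg over all genes, and a gene is called below 0.05. The steps were tested on simulated data. Alternatives were the 24 arrays alone, array weights, leaving out rats or groups, the unoperated control, 2 other scalings, robust regression, genes with 1 probe set and a minimum fold.

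The members and the 37 gene lists were chosen with earlier results of these data known. Genes named are the 12 largest rises and falls among those called at all 3 sizes, the 8 most even rises and falls, opposed genes, up to 4 called members of each list and 12 followed genes; list members called at all 3 sizes are named where they are counted, and other names were chosen after their values were seen. Promoters come from RefSeq (GRCr8), which held 208 of 241 and 320 of 385.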

Additional observations from a re-analysis of the deposited data

Results flagged for a closer look

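In 30 genes picked for description and the 2 set means, 128 groups of 6 rats were looked at for a rat far from the others, and 23 had one. By chance a single group gives one in about 1 in 20 cases. The groups reuse the same 24 rats over genes chosen on these data, so 23 of 128 cannot be weighed against that rate. PH70 rat 139 was the rat far from the others for 12 genes and both set means. Its values were 0.0 for Mcm6, -0.05 for Rrm2, -0.09 for H2ax, -0.01 for Tubb5, -0.26 for Mki67, -0.75 for Ccnd1, -0.83 for Hmgn1 and -0.41 for Rbm3, each the lowest of the PH70 rats. They were -0.73 for Stac3, 0.24 for Sult1c3, 0.53 for Pros1 and 0.37 for Cpped1, each the highest. Its means were -0.11 over the 241 genes higher and 0.17 over the 385 genes lower at all 3 sizes, where the other PH70 rats lay between 0.41 and 0.46 and between -0.37 and -0.25.

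PH30 rat 95 stood apart in Sem1 at -0.43 and in Csad at -0.52. PH90 rat 61 did so in Rbm3 at 1.98 and in Sult1c3 at -5.77, and PH90 rat 111 in Pros1 at -0.62. PH70 rat 58 had 1.76 for Cyp7a1, PH30 rat 99 had -0.96 for Hgf, sham rat 114 had -0.06 for Mtpn and sham rat 112 had -0.03 for Alb.

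By limma's F test, 20 of the 30 genes differed between the 3 sizes after adjustment over all genes. The range of the change over the sizes was 1.12 for Mcm6, 3.17 for Rrm2, 1.67 for H2ax, 1.03 for Tubb5, 1.93 for Krt18 and 2.51 for Rbm3. It was 2.65 for Mki67, 1.88 for Cdk1 and 1.37 for Ccnd1. Among the falls it was 2.25 for Stac3, 5.02 for Sult1c3, 3.14 for Fmo1, 2.89 for Csad, 2.77 for Bdh1, 2.63 for Cyp2c11, 0.97 for Nox4, 1.19 for Pros1, 3.52 for Cyp7a1 and 0.28 for Igf1, and it was 0.65 for Mtpn.

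In the probe sets without exactly 1 gene symbol, which no comparison between genes used, 555 were higher and 424 lower in the pooled contrast.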

How the results depend on the processing

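No paired analysis was possible because the rats' numbers differ in every group. The main counts were 2738 higher and 2149 lower in the pooled contrast and 241 and 385 at all 3 sizes. The count higher at all 3 sizes was 149 with the 24 arrays alone, 450 without rats 95 and 139, 457 with array weights, 496 after a further quantile normalization and 728 with robust regression. The count lower at all 3 sizes was 594 with array weights, 671 with unoperated rats as control, 699 after quantile normalization and 861 with robust regression. The quantile normalization was run on the median-centred values. It gives every array the same distribution of deviations, so its counts do not come from a plain rescaling. Asked at PH70 and PH90 only, 1373 and 1107 genes were called at both. Without the PH90 group the pooled contrast called 1586 genes higher. Against a minimum fold of 1.2 it called 537 and 549, and limma called 0 and 0 at all 3 sizes (93 and 186 at an unadjusted p below 0.05). Leaving out 1 rat gave 2416 to 2886 and 1912 to 2309 in the pooled contrast, and 150 to 412 and 263 to 547 at all 3 sizes. With the unoperated control the pooled change reversed for Sdf2l1 (0.24), C5 (0.06), Dcn (0.11), Hbb-b1 (0.22), Hba-a3 (0.17), Hba-a1 (0.16) and Afp (-0.21), and without the PH90 group for Mbl1 (0.01) and Cyp7a1 (0.02). The causes were not tested, beyond the fewer groups or rats that a setting uses. No scaling moved the median of all genes by over 0.1. The deposited column medians already lay between -0.009 and 0.022, so that outcome was largely set in advance. Over the 166 named genes, the fits without 1 rat left 3915 pooled results on the same side of the threshold, with 68 that lost and 1 that gained a call. Of these genes, 42 lost the call without the PH90 group, 42 with the minimum fold and 21 with the unoperated control.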

Other observations

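Beyond the lists, 2 gene groups were written down after the values had been seen, so their counts are descriptions with no test. Of 126 measured genes with symbols of cytosolic ribosomal proteins, 65 were higher and 2 lower in the pooled contrast, beside 15.1% and 11.8% of all genes. The group's median change was 0.06 at PH30, 0.26 at PH70 and 0.49 at PH90. At all 3 sizes 13 were higher, beside 241 of all 18166 genes. Among the 13 were Rpl24, Rpl27, Rpl35, Rps14 and Rps19. Ribosomal protein genes have many near-identical copies that probes may not part.

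Of 50 measured genes of lysosomal enzymes and membrane proteins, 24 were lower and 4 higher, beside 11.8% and 15.1% of all genes. At all 3 sizes 10 were lower, beside 385 of all 18166 genes. The medians of the group were -0.12, -0.26 and -0.25, so PH70 and PH90 lay close. The 10 that were lower at all 3 sizes were the peptidases Tpp1 and Cpq, the thioesterase Ppt1, the glycosidases Glb1, Man2b1 and Ctbs, the phosphatase Acp2, the membrane protein Lamp2, the sialic acid carrier Slc17a5 and the intramembrane protease Sppl2a. Sham differed from unoperated rats by a median of 0.03 in this group.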
